A study of Drosophila melanogaster with 4 samples.

Results

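The comparison set cells that carried the construct NbrCTD-GWp against cells that carried Nbr(wt), both on the same Nibbler-deficient background, with 1 small RNA library each. The rule kept every row of the deposited miRNA table with a value for fully matching reads in both libraries, which gave 298 of 495 rows and, after rows of the same arm were joined, 285 miRNA arms. The genotypes were Act5C>NbrCTD-GWp; nbrKO and Act5C>Nbr(wt); nbrKO. Both groups therefore shared the loss of the endogenous nbr gene, made by CRISPR-Cas9, and a stably transfected construct written behind Act5C, the name of a cytoplasmic actin gene of the fly. The cells were S2 cells, a line of Drosophila melanogaster embryonic origin, kept at 25°C. What CTD and GWp stand for is not written in the labels, which also give no count of clones and name no empty construct, and the level of the transfected proteins was not analysed here. With 1 library for each construct, the construct cannot be told apart from any other difference between the transfected cultures or their libraries, so no p-value is given. Each interval is a 95% interval that covers counting error only. Another library of the study, from cells with Act5C>NbrCTD; nbrKO, is quoted beside named arms for orientation.

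Nibbler is a 3′-to-5′ exoribonuclease that shortens miRNAs after they have been loaded into Argonaute1, with miR-34 among its known substrates. A miRNA hairpin gives a guide strand, which stays in Argonaute, and a passenger strand, which is mostly discarded, and the seed near the 5′ end of the guide selects its targets. Enzymes such as the uridylyltransferase Tailor add bases that the genome does not encode to the 3′ end of small RNAs and of hairpins. Reads that match the genome over their start but not at their 3′ end were counted as tailed, and the tailed share was their part of all reads of an arm. Only reads that begin at the 5′ end listed for an arm entered its share, its abundance and the passenger to guide ratio. The table gives no read lengths, so trimming itself was not measured here.

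The 7 bases from the 5′ end of an arm, as deposited, are shown for the arms on which the comparison turned, with base 1 in lower case and bases 2 to 7, the part of the seed that the file holds, in capitals. The first 3 pairs share these bases and are set together so that their members can be compared.
miR-998-3p: tAGCACC
miR-995-3p: tAGCACC
miR-996-3p: tGACTAG
miR-279-3p: tGACTAG
miR-306-5p: tCAGGTA
miR-275-3p: tCAGGTA
miR-317-3p: tGAACAC
miR-34-5p: tGGCAGT
miR-1006-3p: tAAATTC
miR-1007-3p: tAAGCTC
miR-980-3p: tAGCTGC

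The libraries were close in depth and in overall tailing. NbrCTD-GWp had 17766373 reads in the table and Nbr(wt) had 20177315, which were 65.0% and 62.1% of the totals of 27312149 and 32488012 reads behind the deposited values. The 119 arms with at least 100 reads in both libraries held 99.98% of the reads of all arms with NbrCTD-GWp and 99.99% with Nbr(wt). Summed over these arms, 1.85% of reads were tailed with NbrCTD-GWp (1.84 to 1.86%), against 1.81% with Nbr(wt) (1.81 to 1.82%), a difference of 0.0363 percentage points. Bantam-3p, which had the most reads in both libraries, decided the sign of that difference, since without it the difference was -0.00203 points. The median arm had a tailed share of 2.15% with NbrCTD-GWp and 2.04% with Nbr(wt), and the median difference per arm was 0.0352 points, with 66 arms up and 52 down. The NbrCTD library had a pooled share of 2.64% and a median of 2.71%. Both leave out miR-2a-3p, which lacked a value for 1 of its deposited rows there. That arm had a low share in the other libraries, 1.07% with NbrCTD-GWp and 1.14% with Nbr(wt), so the pooled shares are not over the same arms. Markers of other cells were scarce. Of 19 listed arms, 14 were among the 285 arms given in both libraries. They summed to 138 reads per 1000000 reads of the 285 arms (miRNA RPM) with NbrCTD-GWp and 166 with Nbr(wt). The ovarian arm miR-318-3p gave most of both sums, with 86.3 miRNA RPM with NbrCTD-GWp and 118 with Nbr(wt). The muscle arms miR-1-3p and miR-133-3p, the neuronal arm miR-124-3p and let-7-5p had at most 42 reads in a library, in either direction. None of the 14 was at 0.

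The tailed share of single arms differed in both directions. Of the 119 arms, 23 had a higher share with NbrCTD-GWp by intervals that did not overlap (19.3%) and 12 had a lower one (10.1%). The intervals of the other 84 overlapped, which does not show that these arms were alike. The size of the differences was small for most arms: the median absolute difference was 0.348 percentage points, and 88 of 119 arms lay within 1 point. Across the 115 arms with tailed reads in both libraries, Spearman's rho was 0.90, a description of arms that share the same 2 libraries and their depths. Calls followed depth: none of the 31 arms with a mean of 100 to 1000 reads was called, against 14 of the 20 arms with at least 100000 reads, of which 6 were higher and 8 lower.

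**Figure D1:**
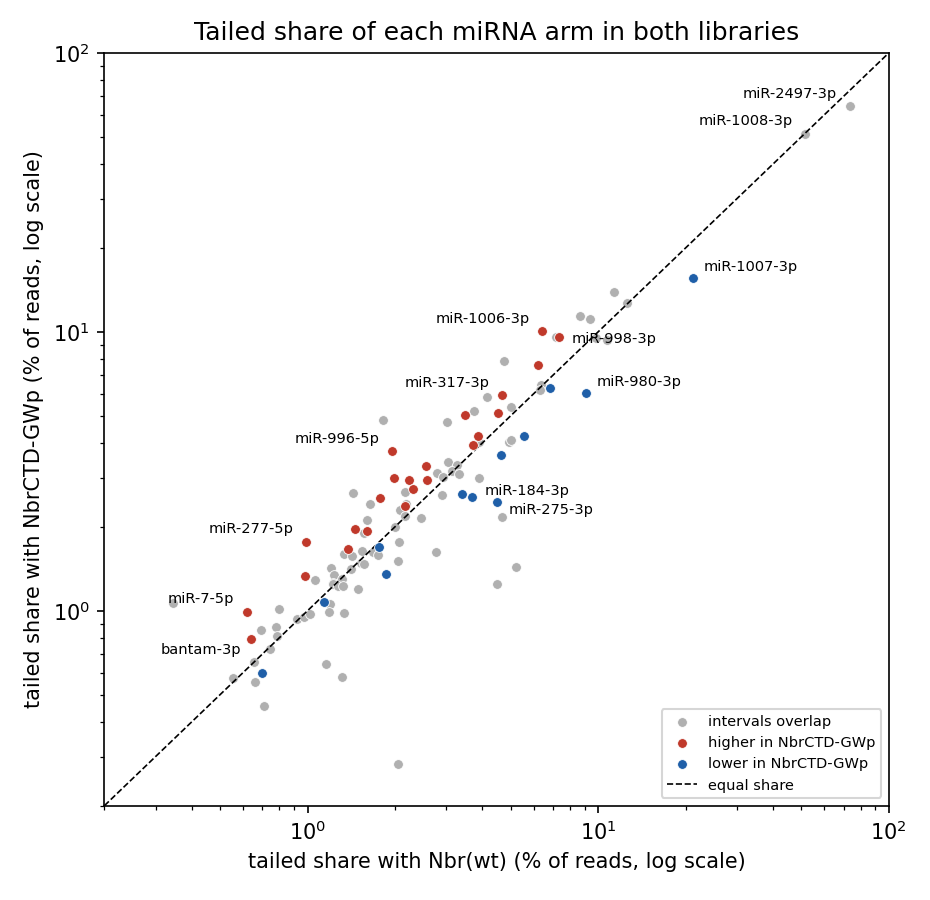
Tailed share of each arm with NbrCTD-GWp (vertical, % of reads, log scale) against Nbr(wt) (horizontal, % of reads, log scale), 1 library each, for the 115 arms with tailed reads in both. Most points lie near the dashed line of equal shares. The 23 red points are arms with a higher share with NbrCTD-GWp and the 12 blue points are arms with a lower one, by 95% exact binomial intervals that did not overlap.

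Among the arms with a higher share, the largest rise in points was that of miR-1006-3p. This mirtron, made from a spliced intron and not by Drosha, lies in an intron of VhaSFD, which encodes a subunit of the vacuolar proton pump, on chromosome 2L. It had 779 tailed of 7753 reads with NbrCTD-GWp, a share of 10.0% (9.39 to 10.7%), against 604 of 9386 with Nbr(wt), a share of 6.44% (5.95 to 6.95%). The log2 odds ratio of a tail was 0.70 ± 0.08 (SE from counts), and the NbrCTD library had 7.40%. MiR-1003-3p, a mirtron from CG6695, had 7.59% with NbrCTD-GWp and 6.22% with Nbr(wt), and 7.77% with NbrCTD. MiR-998-3p, from an intron of the cell cycle factor E2f1, had 9.58% of 73287 reads with NbrCTD-GWp and 7.36% of 48074 reads with Nbr(wt). The NbrCTD share of miR-998-3p was 17.1%, above both.

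Several of the larger rises were in passenger arms. MiR-996-5p had 3.74% tailed reads with NbrCTD-GWp (3.34 to 4.17%) and 1.95% with Nbr(wt) (1.66 to 2.28%), with a log2 odds ratio of 0.96 ± 0.14. MiR-306-3p, from an intron of the checkpoint kinase gene grp, had 5.05% with NbrCTD-GWp and 3.49% with Nbr(wt). MiR-2a-1-5p, from an intron of spi, the gene of an EGF receptor ligand, had 2.99% with NbrCTD-GWp and 1.98% with Nbr(wt). All 3 are strands that the cell mostly discards. MiR-277-5p had 1.77% of reads tailed with NbrCTD-GWp and 0.988% with Nbr(wt). For miR-184-5p the shares were 2.54% with NbrCTD-GWp and 1.77% with Nbr(wt), and for miR-34-3p they were 2.93% with NbrCTD-GWp and 2.23% with Nbr(wt). The guides of these hairpins, miR-277-3p, miR-184-3p and miR-34-5p, did not all go the same way. The share of miR-988-5p, from an intron of the spliceosome gene Prp8, was 3.30% with NbrCTD-GWp and 2.56% with Nbr(wt), and its 99% intervals overlapped. MiR-965-3p, a guide arm from an intron of the chromatin remodeller kis, had 5.11% with NbrCTD-GWp and 4.53% with Nbr(wt). In the NbrCTD library the shares were 3.34% for miR-996-5p, 6.31% for miR-306-3p, 3.04% for miR-2a-1-5p and 1.92% for miR-277-5p. They were 2.31% for miR-184-5p, 3.75% for miR-34-3p, 2.72% for miR-988-5p and 5.30% for miR-965-3p. Each was above its Nbr(wt) share, though for miR-988-5p the intervals of these 2 libraries overlapped. A share above Nbr(wt) was therefore not particular to NbrCTD-GWp in these arms. The median arm of the NbrCTD library was also above that of Nbr(wt), at 2.71% against 2.04%. The other 11 called arms had smaller gaps in points, down to 0.153 for miR-282-5p with 448317 reads with NbrCTD-GWp and 661089 with Nbr(wt).

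The 12 arms with a lower share included several well-read guides. MiR-275-3p had 5272 tailed of 214414 reads with NbrCTD-GWp, a share of 2.46% (2.39 to 2.52%), against 11290 of 252346 with Nbr(wt), a share of 4.47% (4.39 to 4.55%). Its log2 odds ratio of -0.89 ± 0.02 was the most negative of the 12, and the NbrCTD library had 4.66%. MiR-980-3p, from a locus described as a memory suppressor in the fly brain, had 6.06% with NbrCTD-GWp (5.93 to 6.18%) and 9.07% with Nbr(wt) (8.93 to 9.21%), and 13.02% with NbrCTD. MiR-184-3p, whose locus acts in the female germline, had 2.56% of 1857413 reads with NbrCTD-GWp and 3.69% of 1635049 reads with Nbr(wt), and 4.60% with NbrCTD. These 3 guides had more reads than most arms, so counting error on their shares was small. The mirtron miR-1007-3p, from an intron of Abca3 on the X chromosome, had 15.6% (13.7 to 17.8%) with NbrCTD-GWp and 21.2% (19.2 to 23.3%) with Nbr(wt), at 1247 reads with NbrCTD-GWp and 1569 with Nbr(wt), and 29.4% with NbrCTD. MiR-970-3p, from an intron of the synaptic release inhibitor Tomosyn, had 4.24% with NbrCTD-GWp and 5.57% with Nbr(wt). MiR-995-3p, from an intron of the cell cycle kinase gene Cdk2, had 3.61% with NbrCTD-GWp and 4.63% with Nbr(wt). All 3 of these lie inside host genes on the same strand. MiR-282-3p had 2.63% with NbrCTD-GWp and 3.41% with Nbr(wt), and miR-279-3p, which restrains the formation of CO2-sensing neurons, had 6.28% with NbrCTD-GWp and 6.84% with Nbr(wt). MiR-999-3p, from an intron of the scaffold gene CASK, had 1.35% with NbrCTD-GWp and 1.87% with Nbr(wt), and its 99% intervals overlapped.

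The remaining 3 lower calls had small gaps at high depth. Bantam-5p had 0.600% with NbrCTD-GWp and 0.699% with Nbr(wt), and 0.709% with NbrCTD. MiR-2b-3p had 1.69% with NbrCTD-GWp and 1.76% with Nbr(wt), and 2.39% with NbrCTD. MiR-2a-3p had 1.07% with NbrCTD-GWp and 1.14% with Nbr(wt). For each of these miR-2 arms, 1 of the deposited rows taken on its own lost the call. Reads of such near-identical arms were divided over their loci by the authors, so the split between loci is uncertain.

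**Figure D2:**
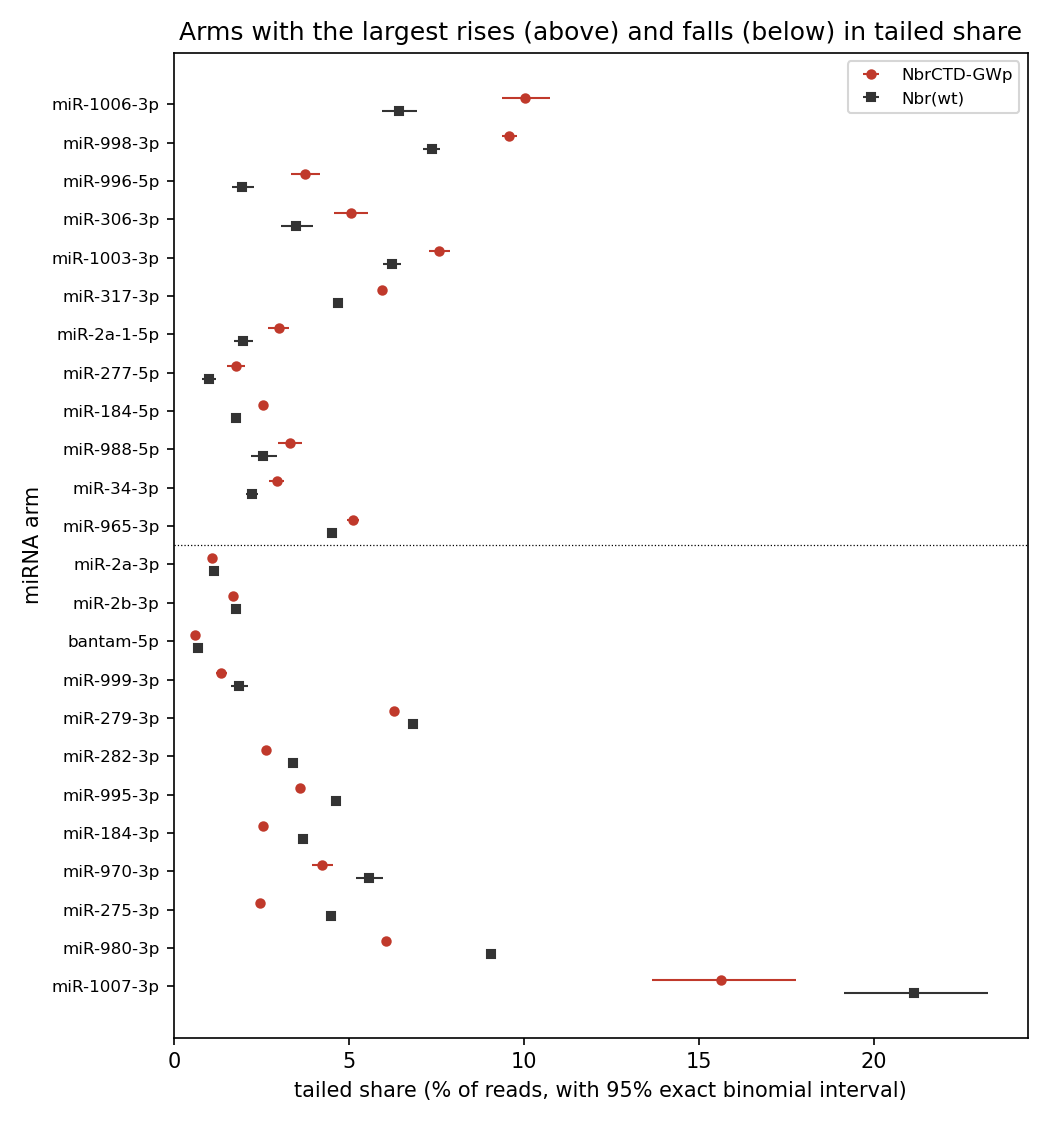
Tailed share (horizontal, % of reads) of the 12 arms with the largest rises, above the dotted line, and the 12 with a lower share, below it. Red circles are NbrCTD-GWp and black squares are Nbr(wt), 1 library each, with bars for the 95% exact binomial interval. MiR-1007-3p has the highest shares of the 24 arms, at 15.6% with NbrCTD-GWp and 21.2% with Nbr(wt).

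The share is made of tailed and untailed reads, so its calls also fix which of these changed more. In the 23 arms with a higher share, the tailed reads, scaled as miRNA RPM, were higher with NbrCTD-GWp in 20, with a median log2 fold of 0.57, and the untailed reads in 18, with a median of 0.20. In the 12 arms with a lower share, tailed reads were higher in 4 and untailed reads in 8, with medians of -0.06 and 0.15. Over all 119 arms the medians were 0.18 for tailed and 0.11 for untailed reads. For miR-275-3p the tailed reads fell by 0.92 on the log2 scale and the untailed reads by 0.02.

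Calls differed in number by side of the hairpin. Over all 119 arms 19.3% were higher and 10.1% lower. The 57 arms on its 5p side included 13 higher ones and 1 lower one, bantam-5p, which is 22.8% and 1.75% of them. The 62 arms on its 3p side included 10 higher and 11 lower ones, or 16.1% and 17.7%. Among 47 passenger arms 10 were higher (21.3%) and 2 lower (4.26%), the higher share being near that of all arms. Their medians were 2.12% with NbrCTD-GWp and 1.77% with Nbr(wt). The median difference per passenger arm was 0.152 points, with 30 arms up and 16 down. Among 66 guide arms 13 were higher (19.7%) and 10 lower (15.2%), the higher share again being near that of all arms. Their medians were 2.34% with NbrCTD-GWp and 2.12% with Nbr(wt). The median difference per guide arm, however, was -0.00199 points, with 33 arms up and 33 down. Of the 12 lower arms, 10 were guides on the 3p side, which is 23.3% of that class. The same class had 8 higher arms of 43, or 18.6%. None of the 23 guides on the 5p side was lower and 5 were higher (21.7%). The difference between these classes was not tested, and they differ in depth and in first base. Arms that begin with T numbered 56, with 12 higher and 10 lower, and those that begin with C numbered 24, with 6 higher and 1 lower. Those that begin with G numbered 15, with 4 higher and 0 lower, and those that begin with A numbered 24, with 1 higher and 1 lower.

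**Figure D3:**
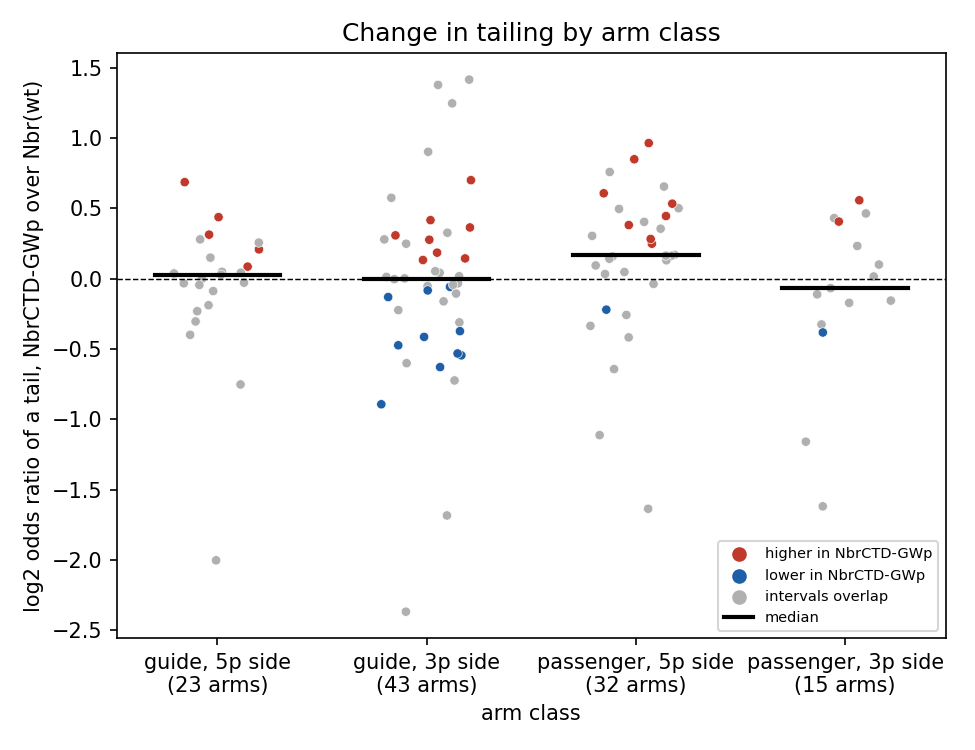
Log2 odds ratio of a tail, NbrCTD-GWp over Nbr(wt) (vertical), for arms grouped as guide or passenger and by side of the hairpin. Each point is an arm and black lines are medians. Blue points, arms with a lower share, are mostly in the class of guides on the 3p side, with 10 of the 12, and that class also holds 8 red points.

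The 2 arms of a hairpin could go opposite ways. For mir-184, the passenger arm miR-184-5p was higher with NbrCTD-GWp while the guide miR-184-3p was lower. For mir-282, the guide miR-282-5p was higher, at 0.789% against 0.637% with Nbr(wt), and the passenger miR-282-3p was lower. Of the pairs with the same leading bases, 1 had calls in opposite directions, with miR-998-3p higher and miR-995-3p lower. MiR-996-3p, a functional partner of miR-279 in the fly, had overlapping intervals at 1.62% with NbrCTD-GWp and 1.68% with Nbr(wt). Its log2 odds ratio was -0.05 ± 0.05, with the same sign as that of miR-279-3p, -0.13 ± 0.02. MiR-306-5p had overlapping intervals at 6.18% with NbrCTD-GWp and 6.32% with Nbr(wt). Its log2 odds ratio was -0.03 ± 0.03, against -0.89 ± 0.02 for miR-275-3p. These differences between pair members were not tested. The K-box family is named for a sequence in the 3′ ends of Notch target mRNAs. Of its 8 arms, 1 was higher (12.5%) and 2 were lower (25%), against 19.3% and 10.1% of all arms. The family's median depth was 215085 reads with NbrCTD-GWp. Among arms with at least 100000 reads 30.0% were higher and 40.0% lower. Depth was uneven within the family, and the difference was not tested.

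The list of arms reported as Nbr substrates in published work had 10 members, and all 10 were in the table. Of these, miR-10-5p had 3 reads with NbrCTD-GWp and 4 with Nbr(wt), and miR-100-5p had 2 with NbrCTD-GWp and 9 with Nbr(wt), too few for a share. Among the 8 measured, 4 were higher, none was lower and 4 overlapped, against 19.3% higher and 10.1% lower over all arms. Their median depth, 104555 reads with NbrCTD-GWp and 103781 with Nbr(wt), was above the 7539 and 6589 of all arms. Among arms of 10000 to 100000 reads 44.8% were higher, and among deeper ones 30.0%. Depth was uneven within the list, and its 4 higher arms all had more than 10000 reads in both libraries. MiR-3-3p and miR-31a-5p lay at a depth where 0% of arms were higher, and miR-263a-5p at one where 10.3% were. Whether 4 of 8 differs from the share at like depth was not tested. MiR-317-3p had 5.94% with NbrCTD-GWp (5.85 to 6.03%) and 4.68% with Nbr(wt) (4.60 to 4.76%), with 7.72% in the NbrCTD library. MiR-34-5p, which protects the ageing fly brain, had 3.92% with NbrCTD-GWp (3.84 to 4.00%) and 3.70% with Nbr(wt) (3.62 to 3.78%), a gap of 0.215 points, and 7.32% with NbrCTD. MiR-11-3p, which lies beside miR-998 in E2f1 and restrains cell death genes, had 2.37% with NbrCTD-GWp and 2.17% with Nbr(wt), and 3.85% with NbrCTD. In these 3 guides the NbrCTD-GWp and Nbr(wt) shares were closer to each other than either was to the NbrCTD share. The pooled share was also highest in the NbrCTD library, at 2.64%, though without miR-2a-3p. It was 1.85% with NbrCTD-GWp and 1.81% with Nbr(wt), both with that arm. Some arms outside the list, though not all, showed the same pattern. MiR-996-3p had 1.62% with NbrCTD-GWp, 1.68% with Nbr(wt) and 2.97% with NbrCTD. The pattern was therefore not particular to the listed substrates. MiR-7-5p, a regulator of photoreceptor development from an intron of HnRNP-K, had 0.992% with NbrCTD-GWp and 0.618% with Nbr(wt); the NbrCTD library had 0.627%. MiR-305-5p, which acts in intestinal stem cells, had 1.99% with NbrCTD-GWp and 2.00% with Nbr(wt), a difference of -0.00452 points (-0.0993 to 0.0904), and 4.06% with NbrCTD. MiR-263a-5p, which protects sensory bristles from cell death, had 4.02% with NbrCTD-GWp and 3.90% with Nbr(wt), a difference of 0.121 points (-1.46 to 1.75). The intervals of miR-263a-5p and miR-31a-5p were wide at this depth. MiR-31a-5p had 3.33% of 240 reads with NbrCTD-GWp and 3.27% of 275 reads with Nbr(wt). MiR-3-3p had 1 tailed of 153 reads with NbrCTD-GWp and 0 of 120 with Nbr(wt), where the exact interval reached 3.03%.

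Calls in clusters of neighbouring hairpins rest on few arms and were not tested against each other. Over all arms 19.3% were higher and 10.1% lower. Calls followed depth here too: at 10000 to 100000 reads 44.8% of arms were higher and 10.3% lower. Among deeper arms 30.0% were higher and 40.0% lower. On chromosome 3R, the hairpins mir-317, mir-277 and mir-34 lie together, and 4 of their 6 arms were higher and none was lower. These were miR-317-3p, miR-34-5p, miR-34-3p and miR-277-5p. The cluster's guide miR-277-3p, a regulator of branched-chain amino acid breakdown, had 1.23% with NbrCTD-GWp and 1.32% with Nbr(wt), with overlapping intervals. In E2f1, 2 of 4 arms of mir-11 and mir-998 were higher. Of 4 arms of mir-275 and mir-305, whose listed 5′ ends on the 3p and 5p arms lay 126 bases apart, miR-275-3p alone was called. The cluster of mir-9c, mir-306, mir-79 and mir-9b had 2 higher arms of 8, that of mir-12, mir-283 and mir-304 had 1 of 6, and neither had a lower one. Of 4 arms of mir-279 and mir-996, 1 was higher and 1 lower. No call was made among the 3 measured arms of mir-92a and mir-92b, the 4 of mir-968 and mir-1002, or the 3 of mir-281.

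Of 14 listed mirtrons, 11 were among the 285 arms and 9 were measured, with 2 higher and 1 lower, near the 19.3% and 10.1% of all arms. Mirtrons held some of the highest shares of the table. MiR-1008-3p had 51.4% with NbrCTD-GWp (50.3 to 52.5%) and 51.5% with Nbr(wt) (50.3 to 52.6%), and 45.4% with NbrCTD. MiR-1016-3p had 12.7% with NbrCTD-GWp and 12.6% with Nbr(wt), and miR-1012-3p had 9.53% with NbrCTD-GWp and 9.80% with Nbr(wt). The highest share of all was that of miR-2497-3p, no mirtron of the list, with 64.5% of 121 reads with NbrCTD-GWp and 73.4% of 199 reads with Nbr(wt).

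The gaps of the most abundant guides not described so far were under 1 point. Bantam-3p, which promotes growth and blocks cell death, had 0.655% of 5850764 reads tailed with NbrCTD-GWp and 0.654% of 7068751 reads with Nbr(wt), a difference of 0.000536 points (-0.00830 to 0.00938). MiR-14-3p, which limits cell death and fat storage, had 1.93% with NbrCTD-GWp and 1.60% with Nbr(wt), by intervals that did not overlap. MiR-8-3p, related to the mammalian miR-200 miRNAs, had 4.24% with NbrCTD-GWp and 3.85% with Nbr(wt), also apart. Of 16 miRNAs listed as common in S2 cells, 6 were higher and 3 lower, or 37.5% and 18.8%, against 30.0% and 40.0% of all arms with at least 100000 reads. The listed arms have narrow intervals, so a call among them is often a gap of under 1 point.

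Abundance was given as miRNA RPM and called at a 2-fold difference with intervals that did not overlap. Values quoted for NbrCTD were scaled instead to the 14786074 reads in all deposited rows of that library, so their unit differs slightly. Of 123 arms whose mean reached 100 reads, 7 were higher with NbrCTD-GWp (5.69%) and 1 was lower (0.813%). The median log2 fold was 0.11, 102 of the 123 arms lay within 1.5-fold, and Spearman's rho over arms was 0.99. A pseudocount of 1 miRNA RPM was added on the log2 scale, which understates the change of low arms.

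The mir-92a and mir-92b hairpins of the jigr1 locus, which maintain neuroblasts in the fly brain, had 3 of the 7 higher arms. MiR-92a-3p had 282 miRNA RPM with NbrCTD-GWp and 87.9 with Nbr(wt), a log2 fold of 1.67. MiR-92b-3p, whose listed 5′ end is 4897 bases from that of miR-92a-3p, had 314 with NbrCTD-GWp and 115 with Nbr(wt), a log2 fold of 1.45. MiR-92a-5p had 63.7 with NbrCTD-GWp and 12.4 with Nbr(wt), a log2 fold of 2.27. In the NbrCTD library miR-92a-3p, miR-92b-3p and miR-92a-5p were at 63.4, 86.1 and 8.79 miRNA RPM, so the NbrCTD-GWp library was the highest of the 3. None of them had a called difference in tailed share. MiR-92b-3p had 4.08% with NbrCTD-GWp and 5.01% with Nbr(wt), and miR-92a-3p had 1.58% with NbrCTD-GWp and 1.75% with Nbr(wt).

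For the other 4 higher arms, NbrCTD lay nearer to NbrCTD-GWp. The mirtron miR-1016-3p, from an intron of the mitochondrial fusion gene Opa1, had 149.9 miRNA RPM with NbrCTD-GWp, 37.4 with Nbr(wt) and 158 with NbrCTD, and a log2 fold of 1.98. MiR-998-5p had 319 with NbrCTD-GWp, 154 with Nbr(wt) and 369 with NbrCTD. MiR-2489-3p, which overlaps an exon of the metalloprotease gene kuz, had 21.3 with NbrCTD-GWp, 8.97 with Nbr(wt) and 18.6 with NbrCTD. All 3 arms had the lowest level in the Nbr(wt) library. MiR-970-5p had 24.5 with NbrCTD-GWp, 11.4 with Nbr(wt) and 25.0 with NbrCTD. The log2 folds of miR-998-5p and miR-970-5p, 1.05 and 1.03, dropped to 0.94 and 0.93 under median-of-ratios scaling, and both calls were lost.

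MiR-252-5p was the 1 lower arm. It had 787 miRNA RPM with NbrCTD-GWp (774 to 800.2), against 2026 with Nbr(wt) (2006 to 2046), with 2012 in the NbrCTD library. The log2 fold was -1.36. The tailed share of this arm was 1.41% with NbrCTD-GWp and 1.42% with Nbr(wt), with overlapping intervals. In bulk RNA, fewer cells with a miRNA and less of it in each cell cannot be told apart. The 8 measured substrates of the list had log2 folds between -0.06 and 0.67, and none was called.

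**Figure D4:**
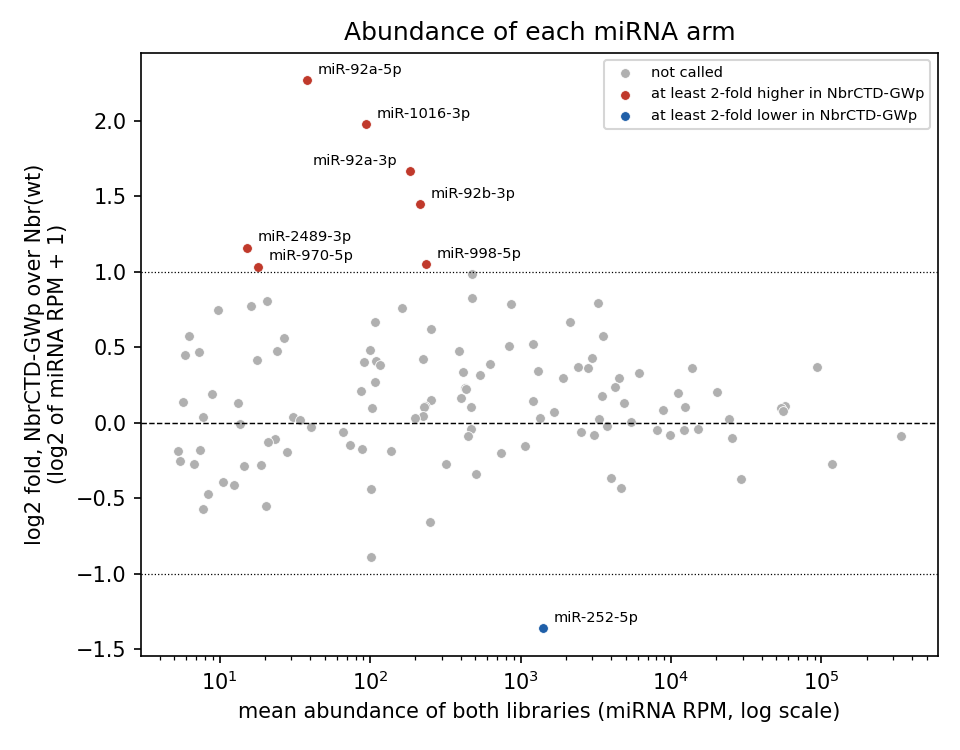
Log2 fold of each arm, NbrCTD-GWp over Nbr(wt) (vertical, on miRNA RPM + 1), against the mean abundance of both libraries (horizontal, miRNA RPM, log scale), for 123 arms. Red points are the 7 arms at least 2-fold higher with NbrCTD-GWp, and the blue point at -1.36 is miR-252-5p. Points at the abundant end lie near 0.

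Passenger strands were more frequent relative to guides with NbrCTD-GWp than with Nbr(wt) in most hairpins. The ratio of passenger to guide reads was higher with NbrCTD-GWp in 40 of 50 precursors and lower in 10, with a median log2 fold of 0.23 and a range of -0.46 to 0.70. Not all precursors are separate measurements, since reads of near-identical arms, such as those of the miR-2 and miR-281 hairpins, were divided over loci. At a 1.5-fold difference with intervals apart, 6 were higher (12%) and none was lower (0%), and none reached 2-fold. Mir-282 had 27.2 passenger reads per 100 guide reads with NbrCTD-GWp and 16.7 with Nbr(wt), and 12.7 with NbrCTD. Mir-965 had 10.7 with NbrCTD-GWp and 7.09 with Nbr(wt), and 4.34 with NbrCTD. Mir-92a had 22.6 with NbrCTD-GWp and 14.1 with Nbr(wt), and 13.9 with NbrCTD. Mir-317 had 4.02 with NbrCTD-GWp and 2.61 with Nbr(wt), and 2.62 with NbrCTD. In these 4 hairpins NbrCTD-GWp stood above both other libraries. In some hairpins without a call NbrCTD was the highest instead. Mir-308 had 20.4 with NbrCTD, 10.8 with NbrCTD-GWp and 9.35 with Nbr(wt). Mir-184 had 5.25 with NbrCTD, 3.26 with NbrCTD-GWp and 3.13 with Nbr(wt). A ratio above that of Nbr(wt) was therefore not particular to NbrCTD-GWp. Mir-283, from an intron of the Golgi gene Gmap, had 3.57 with NbrCTD-GWp and 2.21 with Nbr(wt), and NbrCTD, at 3.55, was close to NbrCTD-GWp. The last called precursor, mir-970, had 2.50 with NbrCTD-GWp, 1.66 with Nbr(wt) and 2.14 with NbrCTD. It fell outside the naming rule and was named after its values were seen. The opposite end of the range was mir-5, also named after its values were seen, at -0.46. It had 87 passenger and 107 guide reads with NbrCTD-GWp, and 122 and 109 with Nbr(wt), and its intervals overlapped. With Nbr(wt) the arm classed as its passenger thus had more reads than its guide.

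**Figure D5:**
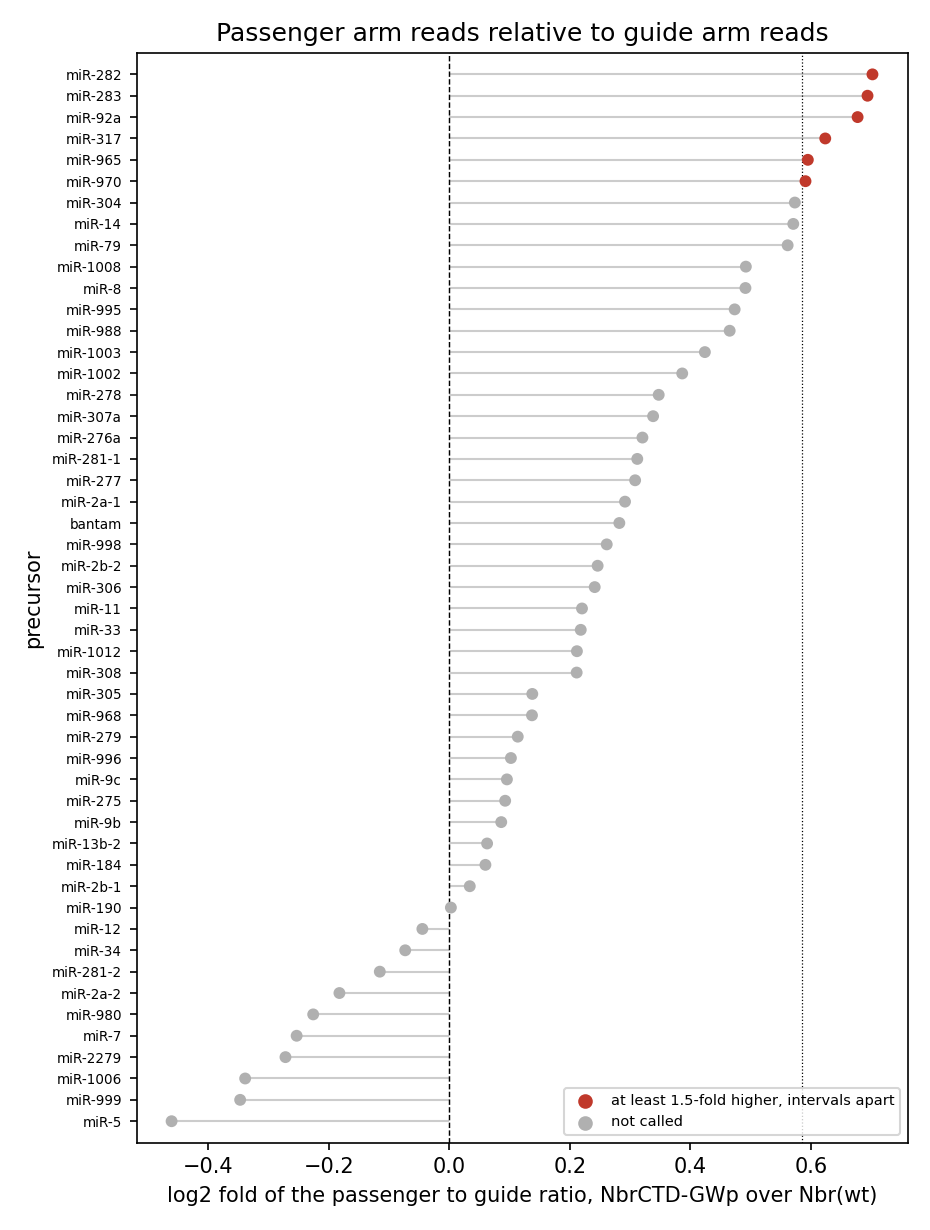
Log2 fold of the passenger to guide ratio, NbrCTD-GWp over Nbr(wt) (horizontal), for the 50 precursors (rows). The dotted line marks 1.5-fold, and the 6 red points beyond it have intervals that did not overlap. Points right of 0, 40 of 50, are precursors with more passenger reads per guide read with NbrCTD-GWp.

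The isoform fraction is the part of the reads from an arm, at any 5′ end, that begin at its listed one, where a shift by 1 base changes the seed. It was within 0.05 in 113 of 119 arms. At that threshold no arm was higher with NbrCTD-GWp (0%) and 6 were lower (5.04%). MiR-2a-2-5p, from spi, had a fraction of 0.561 (0.558 to 0.565) with NbrCTD-GWp and 0.714 (0.711 to 0.717) with Nbr(wt), and 0.706 with NbrCTD. MiR-2c-3p had 0.804 with NbrCTD-GWp and 0.928 with Nbr(wt), and 0.920 with NbrCTD. For both arms the NbrCTD fraction was within 0.01 of Nbr(wt). Some reads of miR-2c-3p were divided over loci by the authors, so its fraction is uncertain. It also had fewer reads with NbrCTD, 3626, against 12234 with NbrCTD-GWp and 15969 with Nbr(wt). MiR-996-5p, which also had a higher tailed share, had 0.613 with NbrCTD-GWp and 0.670 with Nbr(wt). MiR-2497-3p had 0.614 with NbrCTD-GWp, with 121 reads at the listed end, and 0.799 with Nbr(wt), with 199. MiR-1013-3p, from an intron of the Hippo pathway kinase wts, had 0.762 with NbrCTD-GWp, with 291 reads at that end, and 0.851 with Nbr(wt), with 493. The intervals of both were apart. MiR-1006-5p, named after its values were seen, had 0.865 with NbrCTD-GWp and 0.918 with Nbr(wt), with intervals that overlapped. In the NbrCTD library the fraction was 0.638 for miR-996-5p, 0.762 for miR-2497-3p, 0.806 for miR-1013-3p and 0.862 for miR-1006-5p. Each of these was below its Nbr(wt) value, so a lower fraction was not particular to NbrCTD-GWp there.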

How the data were processed

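Small RNAs of 18 to 30 nt were selected from 25 µg of total RNA and ligated to adapters with 4 random bases at the junction, per the labels' protocols. The authors deposited 1 table of miRNA arms with RPM values (reads scaled to 1000000 reads of the library) for fully matching and for prefix-matching reads and with the fraction of reads at the listed 5′ end, per the file headers. Column headers do not spell out these classes, which were read as untailed and tailed. Cutadapt 1.2.1 and HTSeq 0.9.1 are listed with no role, per the submitters' processing notes. No aligner or build is given in the sources used here. Host gene names came from the BDGP6.54 annotation by precursor name, and the bft rows were called miR-263a after a RefSeq synonym. No coordinates were converted.

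The value of 1 read in each library was found from the smallest RPM steps, and reads were recovered by division: 95.8% (NbrCTD-GWp) and 95.7% (Nbr(wt)) of fully matching values and 91.7% and 91.9% of prefix-matching values came within 0.01 of a whole number. The rest are reads the authors divided over loci, so 19 rows of the same arm were summed into 9 arms. A tied second listing of a name was left out in 3 cases. Arms needed 100 reads in both libraries (a mean of 100 for abundance and ratios). Intervals were exact, Clopper-Pearson for shares and Poisson for abundance; the interval of a difference joined those of both shares by Newcombe's method. Log2 odds ratios had 0.5 reads added. With 1 library for each construct, no test was run. The code was tested on simulated data. Python 3.11.15, numpy 2.4.6, pandas 2.3.3 and scipy 1.17.1 were used.

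Arms named are the 12 largest rises and falls in tailed share among those called, the measured listed substrates, the 5 most abundant arms, the 8 largest called abundance folds each way and the 5 largest called ratios and isoform fractions each way, with others named to account for lists and classes. The arms and lists were chosen with earlier results of these data known. Alternatives changed read minimums, interval level, size thresholds, scaling, pseudocount, joining of rows and read class.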

Additional observations from a re-analysis of the deposited data

How the results depend on the processing

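Depth limits the tailed share: arms under 1000 reads had no call, and 1 library for each construct gives no replicate spread. No paired analysis was possible because each construct had 1 library. Of the 23 higher and 12 lower tailed shares, 7 and 4 passed a log2 odds ratio of 0.5 in size, and 7 and 6 passed 1 percentage point. Other minimums, 99% intervals, separate rows and leaving out miR-2 and miR-13 arms gave 21 to 23 higher and 10 to 12 lower. The pooled difference of 0.0363 points was -0.00203 without bantam-3p, a low-share arm at 329323 miRNA RPM with NbrCTD-GWp and 350342 with Nbr(wt). The count of higher abundances, 7, was 14 with no read filter, 18 at 1.5-fold, 5 under median-of-ratios scaling, trimmed mean scaling or a pseudocount of 5, and 8 with RPM as deposited. Lower abundances, 1, were 2 under median-of-ratios or trimmed mean scaling and 3 at 1.5-fold. Median-of-ratios scaling shifts the median log2 fold by 0.11. Of 6 higher passenger to guide ratios, 0 passed 2-fold. Higher isoform fractions, 0, were 8 at a difference of 0.02; lower ones, 6, were 3 at a difference of 0.1 and 3 at 1000 reads. For single named results, 59 of 67 alternative values stayed on the same side of the threshold, 8 lost the call, for causes that were not tested, and none reversed. These include 5 arms with no call in tailed share, to which a wider interval could add none.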

Other observations

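Of 18 arm names, the listed 5′ end itself differed between the libraries, so these rows are outside the comparison. In the other 17 the arm had at most 35 reads in a library. MiR-252-3p was the 1 well-read case: its most frequent 5′ end on chromosome 3R, minus strand, was position 9289974 with NbrCTD-GWp, with 186 of 398 reads or 46.7%, and position 9289973 with Nbr(wt), with 519 of 1115 reads or 46.5%. Positions are as deposited, on a build that is not given in the sources used here. The arm of the same hairpin in the comparison, miR-252-5p, was the 1 with the lower abundance.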
